A study of Mus musculus with 18 samples.

Results

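Hmga1, Hmga2, Igf2bp2 and Igf2bp3 are genes of the HMGA and IGF2BP families, grouped under the name oncofetal and followed here through ultraviolet skin carcinogenesis. They were chosen by name, and all 4 had an entry among the 14521 named genes of the deposited table. The group name does not describe each gene in these data. Hmga1 and Igf2bp2 were detected in every library of skin free of lesions, and Igf2bp3 was lower in the lesions. The transcriptomes of 6 female SKH1-E Hairless mice were read by mRNA sequencing, in an outbred strain irradiated chronically with solar simulators from young adulthood. Each mouse gave 3 samples, namely irradiated skin free of lesions (CHR), a benign epidermal outgrowth or papilloma (PAP) and a squamous cell carcinoma of the skin (SCC), so that 18 libraries fell into 3 groups of n = 6. The control skin had therefore received the same irradiation as the lesions, and no unirradiated skin entered any comparison. No engineered allele is named for the mice, and each library came from bulk tissue. In such tissue, fewer cells of a type and less RNA per cell cannot be told apart.

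HMGA proteins are small chromatin architectural factors that bind AT-rich DNA through AT-hook motifs and bend it, which helps transcription factors to assemble. Hmga1 is expressed in many dividing cells, whereas Hmga2 is abundant in the embryo, is almost silent in most adult tissues and returns in many tumours. The IGF2BP proteins bind mRNAs, including transcripts of Igf2, Myc and Actb and transcripts that carry N6-methyladenosine (m6A), and keep them stable or control where they are translated. Igf2bp1 and Igf2bp3 are mostly restricted to fetal life and cancer, while Igf2bp2 remains expressed in adult tissues and is a known transcriptional target of Hmga2. The let-7 microRNAs, which accumulate as tissues mature, repress HMGA2 and IGF2BP transcripts through their 3' UTRs, and LIN28 proteins block the maturation of let-7.

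A feature that all 4 genes share is a match to the let-7 seed in the 3' UTR. The genes were chosen by family, and let-7 is known to repress members of both families, so this is not an independent result. Of 11 mature let-7 and miR-98 names in RefSeq (GRCm38.p6), 10 carry the same seed at bases 2 to 8. These microRNAs are shown because the seed is what the sites in the 4 genes match. The seed is in capitals, and let-7j is the name with another seed.
let-7a-5p: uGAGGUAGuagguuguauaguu
let-7g-5p: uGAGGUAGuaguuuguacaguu
miR-98-5p: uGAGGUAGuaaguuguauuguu
let-7j: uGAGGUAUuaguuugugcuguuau

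The reverse complement of the common seed, CTACCTC, was searched on the sense strand of the longest annotated 3' UTR of each gene (GENCODE M21, GRCm38). Hmga2 held 4 matches in 3014 bases, and Hmga1, Igf2bp2 and Igf2bp3 held 1 each in 1183, 1784 and 2119 bases. At least 1 match was present in 9.18% of 20657 genes with a 3' UTR of 50 bases or more, whose median length was 989 bases, and 12 of those genes (0.058%) had at least as many matches as Hmga2. The first Hmga2 match and the matches of Igf2bp2 and Igf2bp3 were followed by A, the 8-base form that 3.11% of genes held. The matches are shown with the 15 bases before them and the base after them, with the match in capitals and written as DNA.
Hmga2 site 1, chr10:120364225-120364231, minus strand: gccgacattcaatttCTACCTCa
Hmga2 site 2, chr10:120362988-120362994, minus strand: ccccactcctcaataCTACCTCt
Hmga2 site 3, chr10:120362550-120362556, minus strand: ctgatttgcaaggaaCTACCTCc
Hmga2 site 4, chr10:120361692-120361698, minus strand: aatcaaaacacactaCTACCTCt
Hmga1, chr17:27563292-27563298, plus strand: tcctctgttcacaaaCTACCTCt
Igf2bp2, chr16:22059474-22059480, minus strand: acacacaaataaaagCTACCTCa
Igf2bp3, chr6:49086788-49086794, minus strand: tgcatttttactcaaCTACCTCa

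The related genes Igf2bp1 and Lin28b held 4 matches each, in 6337 and 4445 bases. A match describes letters in an annotated transcript and was not tested as a site of regulation, and let-7 levels were not analysed here.

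**Figure D1:**
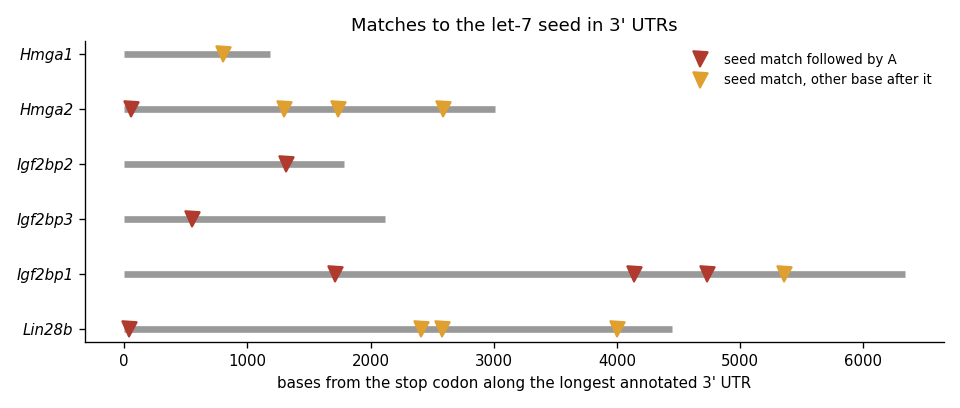
Matches to the let-7 seed (triangles) along the longest annotated 3' UTR (grey bar) of the 4 genes and of Igf2bp1 and Lin28b, with bases from the stop codon on the x axis and red triangles for matches followed by A. Hmga2, Igf2bp1 and Lin28b carry 4 matches each, and Hmga1, Igf2bp2 and Igf2bp3 carry 1 each.

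Reads recovered from the deposited values ranged from 15.421 to 21.016 M per library (median 18.92 M). These are reads counted to the genes of the table, not the full sequencing depth, which the paper reports as larger. Values per sample are given below as normalised reads, that is, recovered reads divided by the size factor of the library. Fold changes are limma estimates on log2(value + 1) of the deposited values, which compress low expression, and every adjusted p is from limma with Benjamini-Hochberg adjustment over 14521 genes. Tissue makeup differed between the groups. The summed level of 14 keratinocyte genes such as Krt5 and Trp63 was 303400 to 468900 normalised reads in CHR, 736600 to 1209000 in PAP and 281300 to 826600 in SCC. Against CHR, the summed level of suprabasal keratinocyte genes (Krt1, Krt10, Ivl and Lor) was instead lower in both lesions. Median sums were 195800 in CHR, 97900 in PAP and 25290 in SCC, and the ranges of these sums overlapped between groups. Ivl was not called in PAP vs CHR or SCC vs CHR (adjusted p = 0.693 and 0.713). From PAP to SCC the median sum fell for both lists, for the 14 keratinocyte genes from 902600 to 629300. The keratinocyte list used below therefore does not stand for all keratinocytes. Skeletal muscle genes (6 of 6 in the table) summed to 347100 to 522700 in CHR, 91.2 to 25730 in PAP and 200 to 172200 in SCC, and the fibroblast list (6 of 6) to 132900 to 298900, 4776 to 160400 and 17030 to 492900. The carcinoma of mouse 10 had the lowest muscle and fibroblast sums of its group.

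Hmga2 and Igf2bp2 were each called higher in carcinoma than in skin. Igf2bp3 fell almost to 0 in both kinds of lesion, and Hmga1 did not pass the test in any comparison. In SCC vs CHR, 2 of the 4 genes were called higher, against 15.1% of all genes tested, and 1 was called lower, against 21.4%. In PAP vs CHR, 0 of 4 were called higher, against 22.8% of all genes, and Igf2bp3 alone was called lower, against 28.7%. In SCC vs PAP, 0 of 4 were called by limma, against 4.99% of all genes called higher and 0.592% called lower. With the mouse as a replicate block, the genes called in SCC vs PAP went from 724 to 1270 higher and from 86 to 160 lower, and 0 of the 4 genes were among them; without mouse 3, 7 or 8 no gene was called. At an unadjusted p under 0.05 that comparison gave 1 of 4 (Igf2bp2), and limma-voom on recovered reads called 0 of 4.

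**Figure D2:**
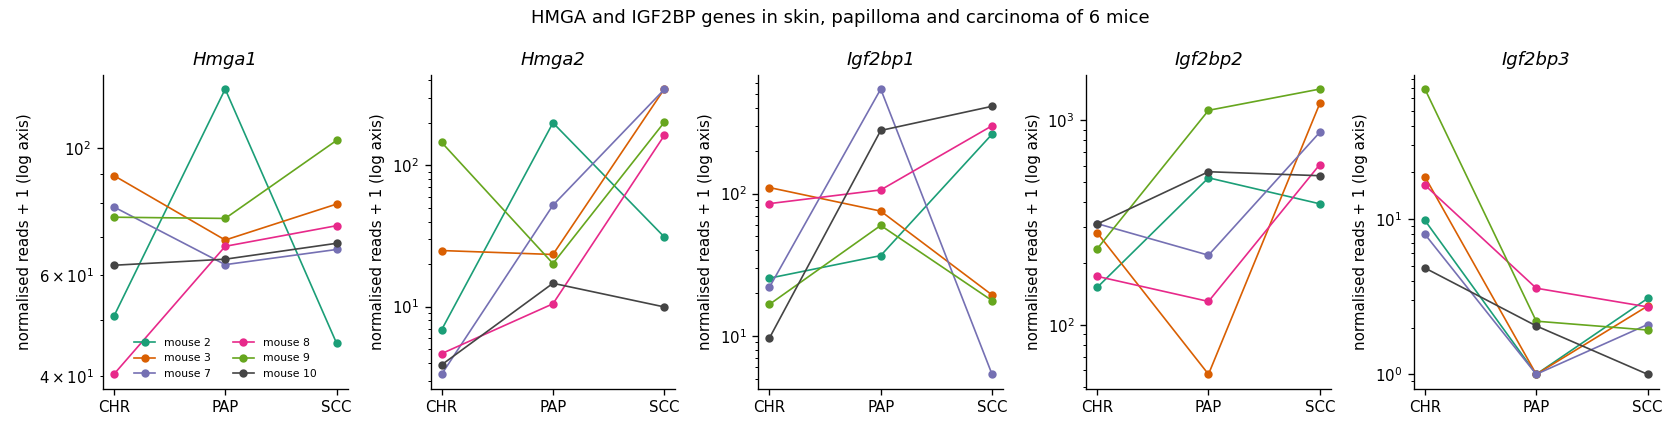
Normalised reads plus 1 on a log axis for the 4 genes and for the related gene Igf2bp1 in CHR, PAP and SCC, with 1 line per mouse. Hmga2 and Igf2bp2 ended higher in SCC than in CHR in 6 of 6 mice, and Igf2bp3 ended lower in 6 of 6 mice.

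Hmga1 (chromosome 17, 27556497 to 27563674, plus strand, GRCm38) encodes the architectural factor HMGA1. Its level ranged from 39.27 to 88.5 normalised reads in CHR with a median of 68.0, from 61.5 to 125.6 in PAP with a median of 67.2, and from 44.7 to 102.0 in SCC with a median of 69.6. The ranges of the 3 groups overlapped almost entirely, and the papilloma of mouse 2 was the highest library. The log2 fold change was 0.12 ± 0.13 (SE) in PAP vs CHR (adjusted p = 0.461, 95% interval -0.16 to 0.40) and 0.07 ± 0.13 in SCC vs CHR (adjusted p = 0.697, interval -0.21 to 0.35). In SCC vs PAP it was -0.05 ± 0.13 (adjusted p = 0.872, interval -0.33 to 0.23). With each library centred on the keratinocyte list the sign turned, and Hmga1 was called lower in PAP vs CHR (-1.17, adjusted p = 0.000309) and in SCC vs CHR (-0.62, adjusted p = 0.0468), where that centring moved the median of all genes to -1.29 and -0.71.

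The Hmga1 value is uncertain, because 46.61% of its 76-base exon windows also occur in other annotated transcripts. How the counting divided reads that fit more than 1 gene is not given in the sources used here.

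Hmga2 (chromosome 10, 120361275 to 120476469, minus strand) encodes the embryonic member of the pair. In CHR it was at 5.86, 23.9, 2.32, 3.65, 144.1 and 2.88 normalised reads in mice 2, 3, 7, 8, 9 and 10. In PAP it was at 198.6, 22.4, 51.1, 9.48, 19.2 and 13.6, and in SCC at 30.1, 344.8, 342.6, 161.4, 200.3 and 8.95, in the same order of mice. Carcinomas of mice 3, 7, 8 and 9 were above every skin library, the carcinomas of mice 2 and 10 were not, and the skin of mouse 9 stood far above the other skin libraries, so that the groups overlapped. Group medians were 4.76 for skin, 20.8 for papillomas and 180.9 for carcinomas. The ratio of group means was 5.95 for SCC over CHR and 1.72 for PAP over CHR, and single mice moved both: without mouse 9 they were 23.0 and 7.64, and without mouse 2 the ratio of PAP over CHR was 0.654.

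The limma log2 fold change of Hmga2 in SCC vs CHR was 1.46 ± 0.49 (SE), with an adjusted p of 0.0257. Within mice, log2(normalised reads + 1) was higher in SCC than in CHR in 6 of 6 mice, by a mean of 3.27 ± 2.37 (SD, n = 6, exact two-sided sign-flip permutation test p = 0.0312, the smallest p that 6 mice allow). The rise ranged from 0.47 in mouse 9, whose skin was already high, to 6.69 in mouse 7. In PAP vs CHR the fold change was 0.44 ± 0.49 (adjusted p = 0.469), with 4 of 6 mice higher, and in SCC vs PAP it was 1.02 ± 0.49 (adjusted p = 0.223, interval -0.01 to 2.05), with 4 of 6 mice higher.

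The call in SCC vs CHR depended on single mice. It was lost when mouse 3, 7 or 8 was left out (log2 fold changes 1.295, 1.15 and 1.33, adjusted p = 0.0923, 0.12 and 0.0909), and it was also lost in limma-voom on recovered reads (log2 fold change 3.32, adjusted p = 0.0582), where the mouse as a replicate block restored it (3.12, adjusted p = 0.029). With each library centred on the keratinocyte list, the value for Hmga2 was 0.77 (adjusted p = 0.22), while the median of all genes moved to -0.71. With this centring Hmga2 was instead called in SCC vs PAP (1.63, adjusted p = 0.0282), where the median of all genes stood at 0.59. The part of the keratinocyte share in these differences was not tested. Among the carcinomas, that of mouse 10 had the lowest Hmga2 level and the lowest fibroblast sum (17030 normalised reads), and that of mouse 2, with the next lowest Hmga2 level, had the highest fibroblast sum (492900); the part of the fibroblast share was not tested.

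Igf2bp2 (chromosome 16, 22059009 to 22163299, minus strand) encodes the IGF2BP protein that adult tissues retain. In CHR it was at 151.4, 281.0, 311.4, 171.7, 234.4 and 309.8 normalised reads in mice 2, 3, 7, 8, 9 and 10. In SCC it was at 389.4, 1206, 871.8, 606.3, 1418 and 534.5, and in PAP at 522.0, 56.4, 218.0, 129.2, 1116 and 559.0. Every carcinoma was above every skin library, a separation that 8.57% of all genes showed in the same direction, while papillomas spread on both sides of skin. The papilloma of mouse 3 was the lowest of all 18 libraries and its carcinoma the second highest.

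The log2 fold change of Igf2bp2 was 1.44 ± 0.44 in SCC vs CHR (adjusted p = 0.0156), and the ratio of group means was 3.44. Within mice the rise was 1.69 ± 0.63 (SD, n = 6, 6 of 6 mice higher, exact permutation p = 0.0312), from 0.79 in mouse 10 to 2.59 in mouse 9. In PAP vs CHR the fold change was 0.31 ± 0.44 (adjusted p = 0.574, interval -0.60 to 1.23), with 3 of 6 mice higher. In SCC vs PAP it was 1.13 ± 0.44 (adjusted p = 0.129), with 4 of 6 mice higher and a within-mouse exact permutation p of 0.188. Centred on the keratinocyte list, the value in SCC vs CHR was 0.75 (adjusted p = 0.192) and that in SCC vs PAP was 1.73 (adjusted p = 0.0154).

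Igf2bp3 (chromosome 6, 49085223 to 49214957, minus strand) encodes the fetal paralogue that is used as a marker of several carcinomas. In CHR it had 9, 17, 6, 17, 78 and 4 recovered reads in mice 2, 3, 7, 8, 9 and 10. In PAP it had 0, 0, 0, 3, 1 and 1 reads, and in SCC 2, 2, 1, 2, 1 and 0. Every lesion was below every skin library, a separation that 19.3% of all genes showed for PAP and 11.3% for SCC. The gene was thus detected in the irradiated skin of all 6 mice and stood at 0 to 3 reads in each of the 12 lesions.

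The 6 CHR libraries held 131 reads together, the PAP libraries 5 and the SCC libraries 8. The mean of normalised reads was 25.0 times lower in PAP (95% counting interval 11.1 to 83.0) and 15.9 times lower in SCC (8.40 to 40.3); these intervals cover counting error only. The skin of mouse 9 held 78 of the 131 reads, and without mouse 9 the means were 14.5 and 7.96 times lower, while without mouse 8, whose papilloma held 3 of the 5 reads of its group, that for PAP was 46.7 times lower. On the compressed scale of the deposited values the log2 fold change was -0.74 ± 0.17 in PAP vs CHR (adjusted p = 0.00146) and -0.65 ± 0.17 in SCC vs CHR (adjusted p = 0.00594). Within mice the level fell by 3.15 ± 1.34 in PAP and by 2.73 ± 1.25 in SCC (log2, SD, n = 6, 0 of 6 mice higher, exact permutation p = 0.0312 for each). Both calls held in each of 13 alternative fits; keratinocyte centring, 1 of the 13, also lowered the median of all genes, to -1.29 for papillomas and -0.71 for carcinomas. SCC and PAP did not differ beyond their spread (0.08 ± 0.17, adjusted p = 0.819), at a depth of a few reads.

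Several marker lists moved in the same direction as Igf2bp3 between skin and lesions. Summed levels of skeletal muscle genes did not overlap between CHR and either lesion (347100 to 522700 normalised reads in CHR, at most 172200 in any lesion). The same held for mast cell genes (4 of 4 in the table), at 4496 to 8667 in CHR, 89.2 to 1556 in PAP and 1133 to 2825 in SCC, and for T cell genes (4 of 4), at 578 to 867, 45.1 to 235 and 140 to 465. Macrophage genes (4 of 5) summed to 19030 to 29360 in CHR, 846.4 to 3367 in PAP and 2201 to 25780 in SCC, so that CHR and SCC overlapped. Other lists had lower median sums in PAP than in CHR but were near or above CHR in SCC. In CHR, PAP and SCC the medians were 207700, 54840 and 227500 (fibroblast), 8012, 4959 and 9262 (adipocyte), and 4353, 2934 and 4258 (endothelial). The adipocyte list was split, as Adipoq, Plin1 and Cidec were called lower in both lesions and Fabp4 was not. Within CHR, the skin of mouse 9, which had the highest Igf2bp3 level, also had the highest fibroblast (298900) and mast cell (8667) sums, a macrophage sum of 29280 and the lowest muscle (347100) and keratinocyte (303400) sums. The part of these cell types in the fall of Igf2bp3 was not tested.

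An Igf2bp3 read can also come from Malsu1 on the opposite strand, with which the gene shares 1529 exon bases and 17.83% of its 76-base windows, since the strandedness of the counting is not given in the sources used here. Malsu1, a mitochondrial ribosome assembly factor, ranged from 341 to 410 normalised reads in CHR, 370 to 564 in PAP and 371 to 494 in SCC, with medians of 403, 433 and 394. In the same lesions Igf2bp3 had 0 to 3 reads. The part of Malsu1 in the Igf2bp3 counts was not tested.

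**Figure D3:**
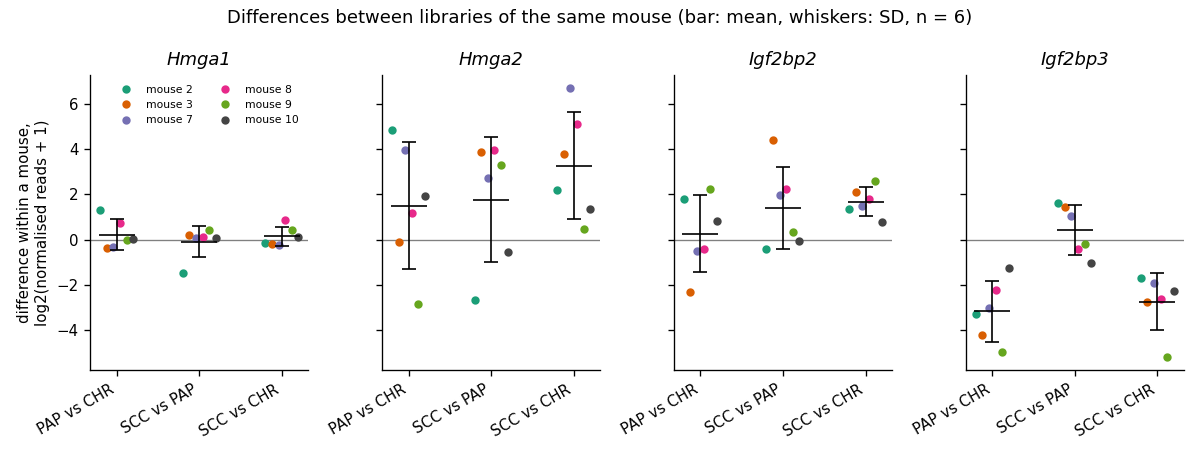
Differences in log2(normalised reads + 1) between libraries of the same mouse for the 4 genes in the 3 comparisons, with 1 point per mouse, the mean as a bar and the SD as whiskers (n = 6). For SCC vs CHR all 6 points lie above 0 for Hmga2 and Igf2bp2 and below 0 for Igf2bp3, while the points of Hmga1 lie on both sides.

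The remaining IGF2BP paralogue, Igf2bp1 (chromosome 11, 95957163 to 96005940, minus strand), was variable in lesions. It ranged from 8.63 to 109.3 normalised reads in CHR, from 35.7 to 542.4 in PAP and from 4.36 to 410.0 in SCC. The carcinomas of mice 2, 8 and 10 were at 260.6, 298.8 and 410.0, and those of mice 3, 7 and 9 at 18.4, 4.36 and 16.7. The latter 3 mice had the 3 highest carcinoma levels of both Hmga2 and Igf2bp2. The log2 fold change of Igf2bp1 was 1.04 ± 0.56 in PAP vs CHR (adjusted p = 0.128) and 0.75 ± 0.56 in SCC vs CHR (adjusted p = 0.312). Of 22 relations between the family genes within 1 group of 6 libraries, none passed adjustment, for Pearson or for Spearman coefficients. The lowest adjusted p was 0.0612, for Hmga1 and Igf2bp1 over the 6 papillomas (rho = -1.0, exact permutation p = 0.00278), where r was -0.73 (exact permutation p = 0.0736, adjusted 0.311), or -0.99 without the 2 libraries farthest from the median of Hmga1. Hmga2 and Igf2bp3 over the 6 skin libraries gave r = 0.91 (exact permutation p = 0.0153, adjusted 0.184) and rho = 0.89 (exact permutation p = 0.0333, adjusted 0.366), and r was 0.39 without the 2 libraries farthest from the median of Hmga2. Over the 6 carcinomas, Hmga1 and Igf2bp2 gave r = 0.87 (exact permutation p = 0.0167, adjusted 0.184) and rho = 0.83 (exact permutation p = 0.0583, adjusted 0.428), with r at 0.58 without the 2 farthest. Hmga2 and Igf2bp1 gave r = -0.80 there, with and without the 2 farthest (exact permutation p = 0.0444, adjusted 0.311), and rho = -0.77 (exact permutation p = 0.103, adjusted 0.453). For Hmga2 and Igf2bp2, r over the carcinomas was 0.74 (exact permutation p = 0.107, adjusted 0.311), or 0.36 without the 2 farthest. It was 0.21 over the papillomas and -0.004 over the skin libraries.

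Lin28b, which blocks let-7 maturation, was close to the limit of detection. It had at most 5.81 normalised reads in CHR and 11.0 in PAP, and in SCC the carcinoma of mouse 8 reached 78.2 while the other 5 stayed at or under 8.75. No comparison of Lin28b passed the test (adjusted p from 0.510 to 0.805). Lin28a was not analysed here, as no entry of the table carried its symbol.

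Set against exon length, the order of the levels changed between groups. In CHR the median was 34.8 normalised reads per kb of exon for Igf2bp2, 32.0 for Hmga1, 2.34 for Igf2bp1, 1.49 for Igf2bp3 and 0.703 for Hmga2. In SCC it was 99.8 for Igf2bp2, 32.8 for Hmga1, 26.7 for Hmga2, 14.4 for Igf2bp1 and 0.172 for Igf2bp3. Igf2bp2 and Hmga1 overlapped in CHR, with means of 32.9 ± 9.39 and 30.7 ± 8.71 (SD, n = 6), and Hmga1 and Hmga2 overlapped in SCC, with means of 33.7 ± 8.83 and 26.8 ± 21.5. The order of Hmga1 and Hmga2 in SCC depended on the length used. Per kb of the longest transcript, their means there were 35.8 and 47.6. In CHR Hmga2 was below Igf2bp3 by the median but above it by the mean, 4.50 ± 8.31 against 2.46 ± 2.93, and their libraries overlapped.

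**Figure D4:**
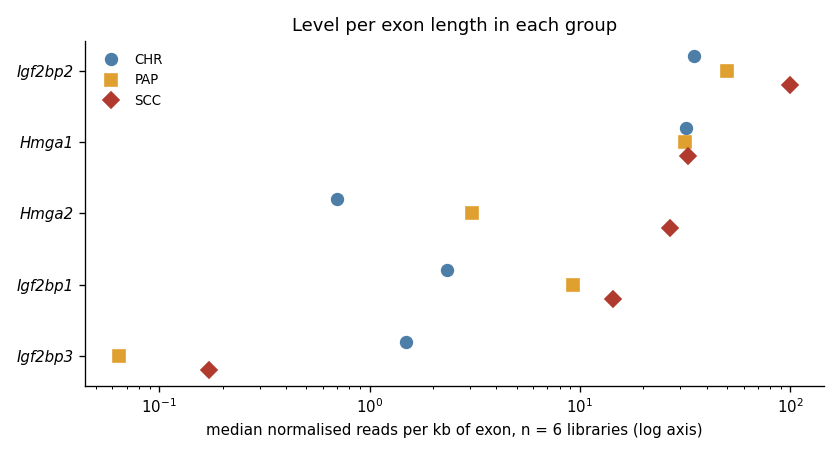
Median normalised reads per kb of exon on a log axis in CHR (circles), PAP (squares) and SCC (diamonds), n = 6 libraries each, for the 4 genes and Igf2bp1. Hmga2 runs from 0.703 in CHR to 26.7 in SCC, Igf2bp3 lies at 1.49 in CHR and under 0.2 in the lesions, and Hmga1 stays between 31.6 and 32.8.

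The progression model of the study, a mixed model with the mouse as a random effect and unadjusted p-values, was refitted here on log2 of the deposited values. The classes below come from this refit, and the class labels that the study itself assigned were not compared. Igf2bp2 was a late gene. It passed in SCC vs CHR and SCC vs PAP but not in PAP vs CHR, and the late class held 2.2% of all genes. Igf2bp3 was an early gene, passing in PAP vs CHR and SCC vs CHR, in a class that held 41.1% of all genes. Hmga2 passed in SCC vs CHR alone and fell in neither class, and Hmga1 passed nowhere. With Benjamini-Hochberg adjustment, Igf2bp3 remained early, Igf2bp2 kept only SCC vs CHR and Hmga2 passed nowhere.

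The wider setting of the 4 genes was described with 7 gene lists, whose counts are read against the shares of all genes called higher and lower given above (for PAP vs CHR 22.8% and 28.7%, for SCC vs CHR 15.1% and 21.4%). The few list genes called in SCC vs PAP by limma on all 3 groups were not called in limma-voom without the block or in the fit of the 2 groups alone. Among 13 genes of let-7 control in the table, 7 were called higher and 2 lower in PAP vs CHR, with a median log2 fold change of 0.27 against 0.00 over all genes. Khsrp, an RNA-binding protein that aids let-7 processing, rose by 0.68 ± 0.13 (adjusted p = 0.000403), and the processing and export genes Drosha and Xpo5 rose by 0.61 ± 0.14 (adjusted p = 0.00123) and 0.495 ± 0.10 (adjusted p = 0.000693). Zcchc11 (Tut4), a uridyltransferase that LIN28A recruits to let-7 precursors, fell by 0.69 ± 0.155 (adjusted p = 0.00124). In SCC vs CHR, 5 were called higher and 0 lower, among them Drosha (0.48), Syncrip (0.42), Tut1 (0.40) and Khsrp (0.39), but without mouse 9 the count was 1. In SCC vs PAP limma called 0, and limma or limma-voom with the mouse as a block called 1.

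Among 26 further let-7 targets, 10 were higher and 6 lower in PAP vs CHR (median 0.20 against 0.00 over all genes). In SCC vs CHR, 7 were higher, and 4 were lower, a smaller share than the 21.4% of all genes; the 11 calls fell to 6 without mouse 9 and to 7 without mouse 8. Ccnd1, the cyclin that starts the cell cycle, rose by 1.51 ± 0.18 in PAP (adjusted p = 2.49e-06) and by 1.39 ± 0.18 in SCC. Myc rose by 1.15 ± 0.15 in PAP (adjusted p = 8.38e-06) and by 0.85 ± 0.15 in SCC. In the opposite direction, Acvr1c, a receptor of the activin and nodal pathway, fell by 2.57 ± 0.28 in PAP (adjusted p = 9.6e-07) and Ccnd2 by 1.16 ± 0.33 (adjusted p = 0.00675), and both fell in SCC vs CHR, by 2.32 and 0.93. Tgfbr1 was called higher in SCC vs PAP (0.52 ± 0.15, adjusted p = 0.048), but the list had 0 calls there without mouse 3, 7, 8, 9 or 10 and with centring on all genes.

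Of the genes reported as HMGA targets, 10 of 15 were called higher in each lesion against CHR. In PAP vs CHR 2 were lower and the median was 0.89, and in SCC vs CHR 0 were lower and the median was 0.91 against -0.02 over all genes. Igf2bp2 is on this list and counts among the 10 of SCC vs CHR. The list was not split by whether HMGA proteins raise or lower a gene, so these counts do not measure HMGA activity. Neither Hmga1 nor Hmga2 was called in PAP vs CHR, and their part in these changes was not tested. Ptgs2, the inducible cyclooxygenase, rose by 3.32 ± 0.49 in PAP (adjusted p = 2.58e-05) and by 2.56 ± 0.49 in SCC (adjusted p = 0.00066). Snai2, a repressor of epithelial genes, rose by 1.51 ± 0.14 in PAP, Cdc25b, a phosphatase that starts mitosis, by 1.49 ± 0.20, and Ccna2, a cyclin of the later cell cycle, by 1.44 ± 0.13. In SCC vs CHR Ccna2 rose by 1.2 ± 0.13 and Ccnb2, a cyclin of mitosis, by 1.13 ± 0.14. Of the cell division markers, 7 of 7 were called higher in PAP vs CHR and 6 of 7 in SCC vs CHR. Snai1, which drives epithelial to mesenchymal transition, was called higher in SCC vs PAP (0.81 ± 0.18, adjusted p = 0.0245), a call the list lost without mouse 2, 3, 7 or 8.

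Of 17 IGF2BP client mRNAs in the table, 7 were higher and 3 lower in PAP vs CHR (median 0.35), while SCC vs CHR gave 8 higher and 2 lower (median 0.50). Hmga2 is on this list and is 1 of the 8, and the 10 calls in SCC vs CHR fell to 6 without mouse 3. Fscn1, an actin-bundling protein of invasive cells, rose by 1.46 ± 0.17 in PAP (adjusted p = 1.71e-06) and was called higher in SCC vs CHR too, while Pdpn, podoplanin, fell by 1.68 ± 0.58 in PAP (adjusted p = 0.023). Igf2, the client that named the family, was at 33.6 ± 10.2 normalised reads in CHR, 11.9 ± 15.3 in PAP and 102 ± 122 in SCC (SD, n = 6), and was called higher in SCC vs PAP (1.16 ± 0.31, adjusted p = 0.0414), a call lost without mouse 2, 3, 7, 8 or 9.

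Of the m6A genes in the table, 8 of 17 were called higher and 0 lower in PAP vs CHR (median 0.31), and SCC vs CHR gave 5 higher and 0 lower (median 0.21). The demethylase gene Alkbh5 rose by 0.77 ± 0.11 in PAP (adjusted p = 2.45e-05), the reader genes Ythdf1 and Ythdc1 rose by 0.615 ± 0.10 (adjusted p = 8.8e-05) and 0.55 ± 0.14 (adjusted p = 0.00283), and Mettl14, of the methyltransferase complex, rose by 0.54 ± 0.125 (adjusted p = 0.00163). Mettl3, the catalytic subunit, was at -0.08 ± 0.11 (adjusted p = 0.554). Ythdf1, Ythdc1, Alkbh5 and Hnrnpa2b1 were also called higher in SCC vs CHR, by 0.43 to 0.48. Of the other HMG box and HMGN genes, 5 of 12 were higher and 1 lower in PAP vs CHR, and SCC vs CHR gave 2 higher and 1 lower. Ssrp1, a histone chaperone subunit, rose by 0.91 ± 0.14 in PAP (adjusted p = 5e-05), and Hmgb2, an abundant protein of dividing cells, by 0.44 ± 0.18 (adjusted p = 0.0474). In SCC vs CHR Ssrp1 and Hmgb3 rose by 0.665 ± 0.14 and 0.42 ± 0.09 (adjusted p = 0.00161 and 0.002), and Tox fell by 0.57 ± 0.10 (adjusted p = 0.000326). Hmgn1, a nucleosome-binding protein, rose by 0.81 ± 0.14 in PAP (adjusted p = 9.5e-05) and was lower in SCC vs PAP by 0.61 ± 0.14 (adjusted p = 0.0245), a call lost without mouse 3, 7 or 8, and Tox, a T cell factor, fell by 0.75 ± 0.10 in PAP (adjusted p = 1.04e-05). T cell markers fell in the same comparison (4 of 4), and their part in the fall of Tox was not tested.

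Of the fetal growth and imprinted genes, 2 of 13 were higher and 6 lower in PAP vs CHR (median -0.52). In SCC vs CHR 1 was higher and 3 were lower (median -0.19), which is below and near the 15.1% and 21.4% of all genes, and these 4 calls fell to 2 without mouse 8 or 9. Mest, an imprinted gene of mesoderm, rose by 2.38 ± 0.24 in PAP (adjusted p = 5.53e-07). Cdkn1c, an imprinted inhibitor of cell division, fell by 4.16 ± 0.32 (adjusted p = 6.39e-08), and Ndn and Sgce fell by 1.98 ± 0.29 and 1.66 ± 0.245 (adjusted p = 2.36e-05 and 2.53e-05). Against CHR, Mest rose by 2.67 ± 0.24 in SCC as well, and Cdkn1c, Ndn and Sgce fell by 3.46 ± 0.32, 0.88 ± 0.29 and 0.75 ± 0.245. In SCC vs PAP, 4 were higher, namely Igf2, Ndn, Grb10 and Sgce, with log2 fold changes of 0.90 to 1.16. These calls fell to 0 without mouse 2, 3, 7 or 8. Of the fibroblast markers 1 of 6 was called higher in SCC vs PAP and of the muscle markers 5 of 6, against 4.99% of all genes. No gene of any kind was called there without mouse 3, 7 or 8. The part of fibroblasts and muscle in the calls of the imprinted genes was not tested.

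The direction of the other 6 lists in PAP vs CHR depended on the scale. Centred on keratinocyte genes, which moved the median of all genes to -1.29, 0 of 17 m6A genes were higher and 17 lower, 0 of 13 let-7 control genes were higher and 13 lower, and 1 of 15 HMGA targets was higher and 5 lower. The fetal growth and imprinted genes were mostly lower on both scales, with 1 higher and 12 lower after centring.

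**Figure D5:**
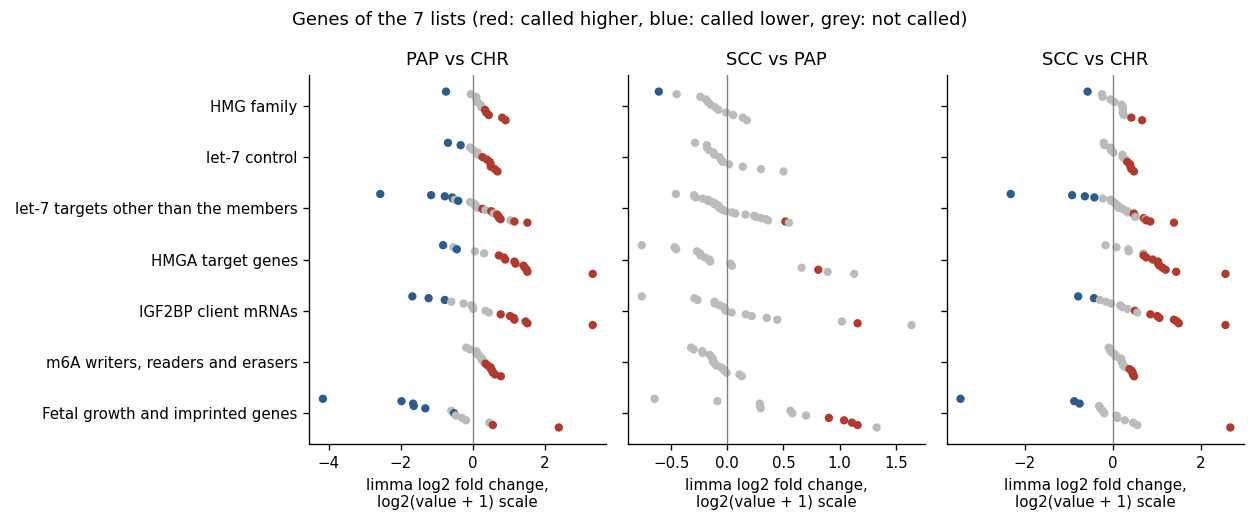
limma log2 fold changes on the log2(value + 1) scale for the genes of the 7 lists in the 3 comparisons, with red points called higher, blue points called lower and grey points not called. Most HMGA target genes lie to the right of 0 in PAP vs CHR and SCC vs CHR, where 10 of 15 are called higher in each, and few points are coloured in SCC vs PAP.

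The genes whose profile over the 18 libraries was most like each of the 4 were found by Pearson r on log2 of the deposited value, as a description over libraries that share groups and mice. For Hmga2 they were Cldn7, Oaf, Dusp9, Tmem151b and Sema7a, with r from 0.829 to 0.874, and 0 of these 5 were among the 5 nearest by Spearman's rho or over the 12 lesions alone. For Igf2bp2 they were Rap2c, Hs3st1, Nans, Rcn2 and Tmem128 (0.807 to 0.867), of which 2 were among the 5 nearest by rho and 2 over the lesions. For Hmga1 they included Tulp3, Dynll2, Mesdc2 and E430025E21Rik (0.749 to 0.811), and by rho and over the lesions the nearest 5 shared 2 and 0. For Igf2bp3 they were Pcdh9, Negr1, Prtg, Lrrc30 and Amph (0.856 to 0.885), and over the lesions, where the gene was near 0 reads, r with Pcdh9 was 0.502; 1 of the 5 was among the nearest by rho and 0 over the lesions.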

How the data were processed

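RNA from 18 bulk tissue samples was sequenced as 76-base read pairs; groups and mouse numbers were taken from the sample titles. The authors aligned reads to mm10 with MOSAIK, used HTSeq for gene counts, scaled each library and ran DESeq2's variance-stabilizing transformation. The deposited values are a score on the linear scale of that step, rounded to whole numbers, in which 0 reads appear as 39. Their methods also name a scaling of batch medians. Versions of the aligner and counter and the strandedness are not given in the sources used here.

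The transformation was inverted (fitted zero level 39.13) to recover reads, and 98.09% of values came out as whole reads within rounding (tolerance 0.5 in the value), as did 100% of values under 100. Size factors were 0.8345 to 1.1782. Of 14542 entries, 21 carried a number for a symbol (at most 0.2407% of reads) and were left out. limma 3.58.1 (R 4.3.3) was fitted on log2(value + 1) with 3 groups, all 18 libraries and no covariate, with a threshold of 0.05, and limma was tested on simulated data. Within-mouse differences used log2(normalised reads + 1) and all sign patterns, with raw p over 4 genes and 3 comparisons. The progression model followed the form of the study's model, refitted on log2 of the deposited values in closed form and checked against nlme 3.1.168 (largest difference in p 0.345%). Libraries of the same number came from the same mouse, so the mouse number was used as a replicate block in an alternative fit; the correlation of same-mouse deviations ran from -0.245 to 0.507. No other batch is given by the labels. The 4 genes and the lists were chosen with earlier results of these data known. From each list, the text names the genes with the largest called fold changes, at most 4 for each comparison (a gene on several lists is described once), and Mettl3, chosen after its values were seen; likeness names 5 genes, of which 1 is not reported here. Coordinates are from GENCODE M21 (GRCm38) and microRNAs from RefSeq.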

Additional observations from a re-analysis of the deposited data

Results flagged for a closer look

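In 4 of the 12 combinations of gene and group, 1 library stood apart by a gap test on normalised reads (Dixon's 95% criterion for 6 samples). For normally distributed values chance would do this in about 1 in 20 groups. That rate need not hold for normalised reads, which are skewed. Hmga2 was at 144.1 normalised reads in the skin of mouse 9, where the other 5 skin libraries had at most 23.9. Igf2bp3 was also highest in the skin of mouse 9, at 67.7 normalised reads against at most 17.7 in the others. The papilloma of mouse 2 stood apart for Hmga1 (125.6 normalised reads, the others at most 74.3) and for Hmga2 (198.6, the others at most 51.1). On the log2(normalised reads + 1) scale only the Hmga1 value of that papilloma stood apart. The skin of mouse 9 had the lowest keratinocyte sum of CHR (303400) and the highest fibroblast sum (298900), and the papilloma of mouse 2 had the highest muscle sum of PAP (25730); their part in these values was not tested. Without mouse 9, the log2 fold change of Igf2bp3 was -0.58 for PAP and -0.48 for SCC against CHR, and that of Hmga2 for SCC against CHR was 1.69 (limma adjusted p = 0.00123, 0.0101 and 0.0243). Without mouse 2, Hmga1 in PAP vs CHR was -0.0056 against 0.12 with all mice.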

How the results depend on the processing

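Of 165 member fold changes under alternative settings, 148 kept their direction and their side of the threshold. With the sign unchanged, 6 lost the call and 3 gained it. The other 8 changed sign, among them Hmga1 with keratinocyte centring, which was also newly called in PAP vs CHR and SCC vs CHR. The cause was not tested. Centring each library on the keratinocyte list moved the median of all genes by -1.30 in PAP vs CHR, -0.69 in SCC vs CHR and 0.61 in SCC vs PAP, and centring on all genes moved it by 0.14 in PAP vs CHR. With keratinocyte centring the log2 fold changes of Hmga1 were -1.17 in PAP vs CHR, 0.56 in SCC vs PAP and -0.62 in SCC vs CHR, those of Hmga2 were -0.85, 1.63 and 0.77, and those of Igf2bp2 were -0.98, 1.73 and 0.75. Igf2bp3 in SCC vs PAP was 0.69 (adjusted p = 0.0425). Minus keratinocyte genes, within-mouse differences of Hmga1 were -1.08 in PAP vs CHR, 0.53 in SCC vs PAP and -0.56 in SCC vs CHR, those of Igf2bp2 were -1.04 (PAP vs CHR) and, for SCC vs CHR, 0.99 (exact permutation p = 0.0625), and that of Hmga2 in SCC vs CHR was 2.57 (p = 0.0938). Genes called with keratinocyte centring were 73 higher and 13345 lower for PAP vs CHR, 7208 higher and 4 lower for SCC vs PAP, and 165 higher and 9003 lower for SCC vs CHR.

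In limma-voom on recovered reads, Hmga2 in SCC vs CHR was 3.32 (adjusted p = 0.0582). Centring on all genes gave 143 genes lower in SCC vs PAP and moved the share of calls that were higher from 44.3% to 57.5% (PAP vs CHR) and from 41.4% to 52.4% (SCC vs CHR). With the mouse as a replicate block, SCC vs PAP gave 1270 genes higher and 160 lower, and limma-voom with the block gave 1539 and 198, against 724 and 86 without it; limma-voom without the block and limma on the 2 groups alone gave 0 in each direction, where 3289 genes had an unadjusted p under 0.05 in the fit of all 3 groups. The block changed no call of the 4 genes on the deposited scale.

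Leaving out 1 mouse at a time gave 0 to 1695 genes higher and 0 to 428 lower in SCC vs PAP (0 without mouse 3, 7 or 8), and log2 fold changes of -0.0056 (without mouse 2) to 0.19 for Hmga1 and -0.0164 (without mouse 9) to 0.68 for Igf2bp2 in PAP vs CHR, -0.11 to 0.11 for Hmga1 in SCC vs PAP, and 1.15 to 1.70 for Hmga2 in SCC vs CHR. With 5 mice the exact test cannot go below 0.0625. The filter of at least 10 reads in 6 libraries removed Igf2bp3. With adjusted p in the progression model, Hmga2 passed in 0 comparisons in place of 1 and Igf2bp2 in 1 in place of 2. With 6 mice and low reads, differences of Hmga2 and Igf2bp3 between single libraries are limited by depth. Without each mouse, a choice made after seeing the data, the ratio of means ran from 4.13 to 23.0 (Hmga2, SCC over CHR).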
